A study of Mus musculus with 16 samples.

Results

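RNA was sequenced from shNT cells at day 4, as embryoid bodies (EB), and at day 10, in the culture labelled CM without GF, to follow what the cells became without GF. ES-E14TG2a is a mouse embryonic stem cell line, and shNT is a hairpin taken here as the control of shBeclin1, a hairpin against Becn1, whose product takes part in the lipid kinase step at the start of autophagy. The comparison was chosen by the library labels and holds 4 of 16 libraries, 2 at day 4 and 2 at day 10. Beside it stand the shNT day 0 embryonic stem (ES) cells, the shNT day 10 culture labelled CM, and the shBeclin1 cells at day 4 and at day 10 without GF, with 2 libraries each. In all groups the labels give the genotype as WT, and the hairpins are the other difference named. GF is not written out in the labels, and they do not state that the CM culture received it, so the cultures are called by their labels. They name the day 4 samples as embryoid bodies and both day 10 cultures as cardiomyocytes, with a tissue tag of heart on cells that are a line and its derivatives. A batch tag repeats the group, so that batch and group cannot be told apart, and nothing says that the 2 libraries of a group were separate cultures. P-values therefore measure the spread between these libraries, which may be technical.

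In the mouse embryo, epiblast cells leave pluripotency either through the primitive streak, where Nodal, WNT and FGF signals turn on T, Eomes and Mixl1 and give rise to mesoderm and endoderm, or directly towards the neural plate where these signals are low. The ventral midline of the neural tube, the floor plate, secretes Sonic hedgehog and netrin, which pattern progenitors and guide axons. Embryoid bodies are aggregates in which stem cells pass through these steps together. Heart muscle derives from streak cells that pass through Mesp1 expression and then use GATA4, NKX2-5 and TBX5 to turn on sarcomere genes.

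The 16 libraries held 14967744 to 21422980 counts, with 15584415 and 16021923 at day 4 and 14967744 and 16408357 at day 10 without GF. Values are CPM, counts scaled to library size, after TMM scaling, given for replicate 1 and then replicate 2. A slash stands between them where several genes follow each other. Log2 folds are day 10 over day 4. The value after ± is the absolute log2 fold or difference divided by the square root of the edgeR test's F statistic. It is not a separately estimated standard error, and for genes near 0 in a group it can be smaller than counting error. A gene was called at an edgeR adjusted p under 0.05, and a 2-fold call is a call with an absolute log2 fold of at least 1. Becn1 itself stood at 73 and 72.2 CPM at day 4 and 63.5 and 60.9 CPM at day 10 without GF in shNT cells, against 33.7 and 38.4 CPM at day 4 and 42.7 and 45.2 CPM without GF in shBeclin1 cells. It was lower in all 4 shBeclin1 libraries than in the shNT libraries, although 43.9% of its exon length also lies in other genes. As no source used here says whether reads were counted by strand, overlap also touches Igf2 (64.5% of exon length), Bmp5 (46.7%), Hes5 (31.8%), Cdkn1c (30.7%) and Shh (28.3%).

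Between day 4 and day 10 without GF, shNT cells lost the genes of the epiblast and primitive streak and gained genes of neural progenitors, of neurons and of collagen-rich mesenchyme. Nkx2-5, Tnnt2 and Myh6, which define cardiomyocytes, were at a few CPM or below on both days, and the cardiac factor gene Gata4 fell. Among sarcomere genes 6 of 24 had 2-fold rises (25%), near the share over all genes (22.7%). That count was higher when the fit held only the compared groups or was made with DESeq2, as given below. Of 19141 genes tested, 13159 were called (68.7%), 6838 higher and 6321 lower, and 13522 had an unadjusted p under 0.05. The 2-fold calls comprised 4354 higher genes (22.7%) and 2668 lower genes (13.9%). The median log2 fold over all genes tested was 0.057. With scaling by total counts in place of TMM this median moved by 0.212 to 0.267, and the share of higher genes among the calls moved from 52% to 62.4%. A log2 fold smaller than that shift can change sign with the scaling. Counts of gene lists below are out of the members that passed the filter on low counts, which a gene that is high in 1 group can pass through that group alone. In bulk RNA, fewer cells of a type and less RNA per cell cannot be told apart.

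The 12 largest falls were led by genes of the primitive streak and posterior epiblast. Mixl1 (chromosome 1, 180693043 to 180697034, minus strand in mm10), a homeobox gene of the streak, went from 76.9 and 79.6 CPM to 0 in both day 10 libraries, at least 876-fold lower. Wnt8a, a WNT ligand of the posterior epiblast, went from 43.4 and 42.6 CPM to 0 in both, at least 481-fold lower, and Evx1, a homeobox gene of the posterior streak, from 25.3 and 26.2 CPM to 0 in both, at least 288-fold lower. These 3 genes had no count in either day 10 library. Eomes, the T-box factor that opens mesendoderm, measured 474 and 463 CPM at day 4 and 1.49 and 1.72 CPM at day 10 (log2 fold -8.18 ± 0.11, edgeR adjusted p = 1.98e-37). Mesp1, the factor of nascent cardiac and cranial mesoderm, fell from 13.3 and 15 CPM to 0.062 and 0 CPM. The other falls of this kind were Cer1 (a Nodal and BMP antagonist), Lhx1 (a streak and anterior mesendoderm factor), Vrtn (known in pigs for its effect on vertebral number) and Foxd3 (a factor of the epiblast and later of neural crest), at log2 folds of -8.90, -7.96, -9.82 and -8.29. The remaining 3 were Fgf5, Alox15, a lipoxygenase gene, and Fosb, an AP-1 subunit, at -8.02, -8.53 and -8.23. On the streak and mesendoderm list, all 19 members were tested, 18 had 2-fold falls and none a 2-fold rise, with a median log2 fold of -3.65. The list's summed level went from 1369 and 1359 CPM to 83.1 and 81.2 CPM. Brachyury, T, fell by less than the list's median, from 166 and 164 CPM to 29.3 and 28.2 CPM (log2 fold -2.52 ± 0.078, edgeR adjusted p = 6.07e-26).

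The pluripotency genes did not fall to zero. Pou5f1 (chromosome 17, 35506018 to 35510772, plus strand), which encodes OCT4, went from 872 and 869 CPM to 24.2 and 21.2 CPM (log2 fold -5.26 ± 0.082, edgeR adjusted p = 5.70e-35). Nanog, its partner in the core network, went from 226 and 243 CPM to 34.3 and 30.9 CPM (log2 fold -2.85 ± 0.087, edgeR adjusted p = 5.67e-24). Both genes were far lower in both day 10 libraries than at day 4, though above 20 CPM. Utf1, an embryonic chromatin factor, fell from 45.6 and 53.7 CPM to 1.24 and 1.6 CPM, and Tdgf1, the Nodal co-receptor Cripto, had also fallen among the 8 of 10 core pluripotency genes with a 2-fold fall. Sox2, shared by pluripotent and neural stem cells, was the 1 core gene with a 2-fold rise, from 68.1 and 64.8 CPM to 149.8 and 139 CPM (log2 fold 1.12 ± 0.072, edgeR adjusted p = 2.22e-16). The list had a median log2 fold of -2.51 and went in sum from 3660.0 and 3706 CPM to 857 and 851 CPM.

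Leading genes of the formative and primed epiblast fell further than Pou5f1. Fgf5, the defining FGF ligand of the post-implantation epiblast, measured 217 and 219.8 CPM at day 4 and 0.993 and 0.687 CPM at day 10 (log2 fold -8.02 ± 0.16, edgeR adjusted p = 1.08e-27). Dnmt3b, the de novo DNA methyltransferase of the epiblast, measured 2297 and 2283 CPM and 18.7 and 17.5 CPM (log2 fold -6.99 ± 0.078, edgeR adjusted p = 2.16e-39). Neither gene's libraries overlapped between the days. Of 13 tested members of the formative list, 9 had 2-fold falls and 1, Cdh2, had a 2-fold rise, from 122 and 119.6 CPM to 253 and 257 CPM; Cdh2 encodes N-cadherin. Otx2, a factor of the primed epiblast and of the anterior neural plate, stayed high, at 181 and 185 CPM and then 237 and 232 CPM (log2 fold 0.36 ± 0.10, edgeR adjusted p = 0.00609). That small rise lost its call when day 4 replicate 1 was left out. The naive pluripotency list, whose genes mark the pre-implantation state, was mixed, with 5 falls, 4 rises and a median log2 fold of -0.13 over 16 members. It was already low at day 4: its summed level was 4666 and 4380 CPM in shNT ES cells at day 0 and 310 and 300 CPM at day 4. At day 10 without GF it was 194 and 187 CPM. On the DNA methylation list 7 of 10 members had 2-fold falls, among them Tet1 (198 and 184 CPM to 67.4 and 59.5 CPM), and 1, Tet2, had a 2-fold rise (5.44 and 8.07 CPM to 58.8 and 62.3 CPM); both encode enzymes that oxidise methylcytosine.

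**Figure D1:**
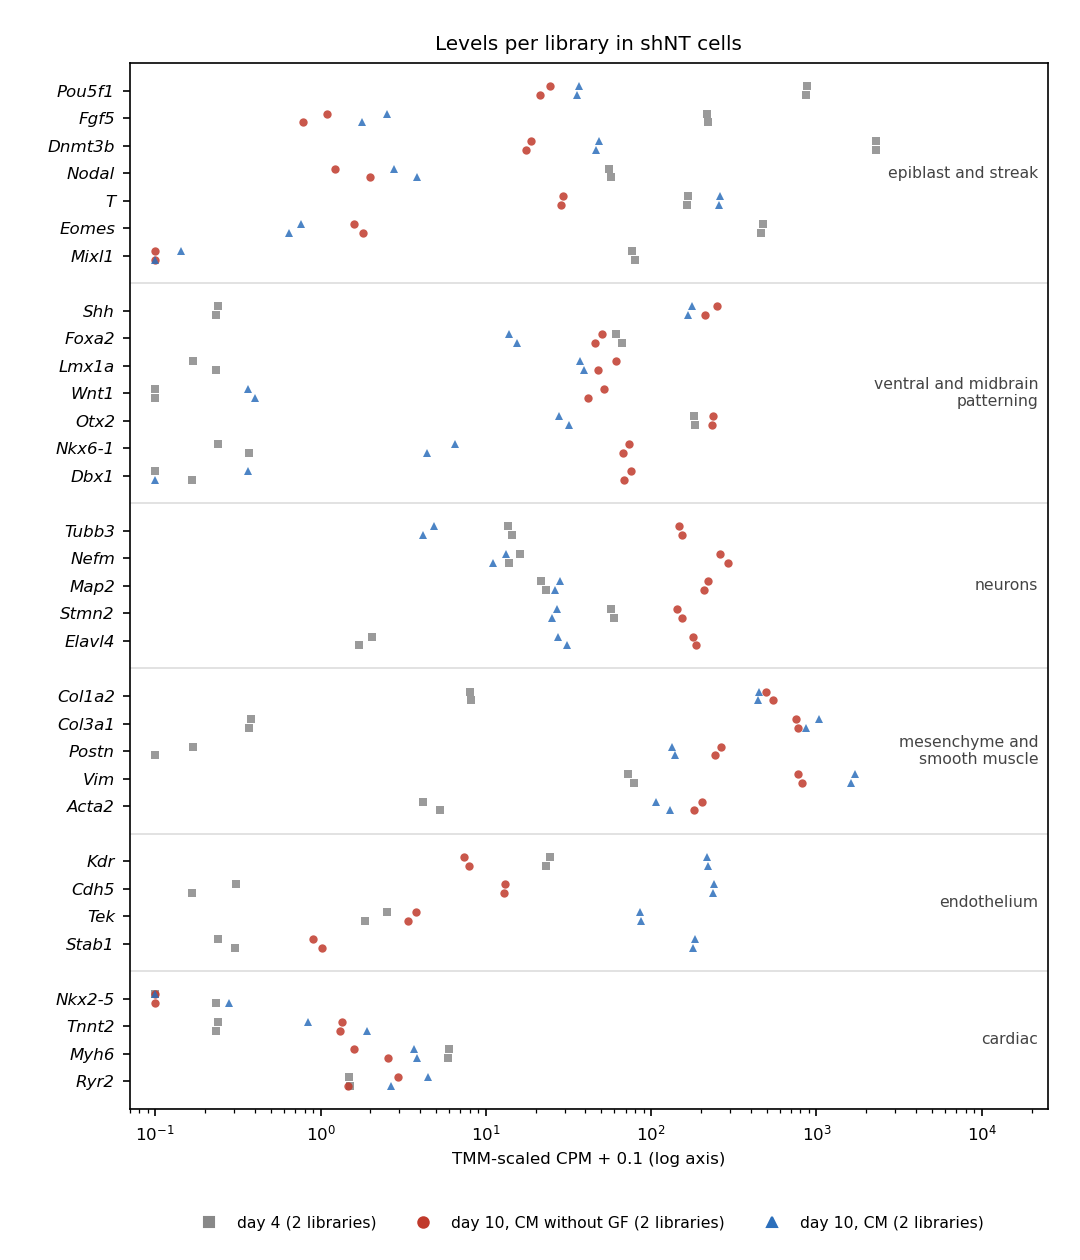
TMM-scaled CPM plus 0.1 on a log x axis for 32 named genes, grouped by role, with 1 point per shNT library at day 4 (grey squares), at day 10 without GF (red circles) and in the day 10 CM culture (blue triangles). The streak and epiblast genes lie higher at day 4 than without GF (Eomes 474 and 463 against 1.49 and 1.72 CPM), while the matrix, neuronal and patterning genes other than Foxa2 lie lower (Shh 0.139 and 0.135 against 249 and 211 CPM).

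The Nodal ligand and its feedback inhibitors were nearly lost. Nodal went from 55.8 and 56.9 CPM to 1.12 and 1.89 CPM (log2 fold -5.21 ± 0.16, edgeR adjusted p = 6.85e-26), and its inhibitors Lefty1 and Lefty2 from 12.9/13.6 and from 45.2/45.4 CPM to 0.931/0.916 and to 2.42/1.32 CPM. Tdgf1 went from 387 and 389.9 CPM to 23.7 and 20.2 CPM. Of 10 tested members of the Nodal list, 7 had 2-fold falls and none a 2-fold rise, with a median log2 fold of -3.99. Targets of FGF and ERK signalling fell as well: of 15 members of the feedback list 11 had 2-fold falls and none a 2-fold rise, with a median of -1.71. Etv4 and Etv5, ETS factors induced by FGF, went from 49.5/44.8 and from 268/271 CPM to 3.6/3.67 and to 21.5/23.2 CPM, and Spry4, an inhibitor of the same cascade, from 22.6 and 24.4 CPM to 2.98 and 2 CPM. Among the 5 FGF receptor genes 2 had 2-fold rises, Fgfr2 and Fgfr3, the latter from 0.279 and 0.606 CPM to 83.1 and 88.9 CPM (log2 fold 7.57 ± 0.20, edgeR adjusted p = 5.52e-28). The immediate early list followed the falls, with 9 of 13 members lower by 2-fold or more: Fos went from 135 and 128 CPM to 3.6 and 3.95 CPM and Egr1 from 268 and 264 CPM to 8.38 and 6.36 CPM. At day 0 these had been at 0.895/0.816 and at 1.28/0.879 CPM, so that both were high at day 4 and low at day 0 and day 10.

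WNT signalling genes moved in both directions. Of 28 tested ligands and receptors 9 had 2-fold rises and 12 had 2-fold falls, and their median log2 fold was -0.14. Wnt3, the ligand that starts the streak, fell from 30.7 and 28.4 CPM to 1.3 and 1.15 CPM. Wnt1 (chromosome 15, 98789857 to 98793837, plus strand), the ligand of the dorsal midline and of the midbrain border, went from 0 in both day 4 libraries to 51.5 and 41.6 CPM, at least 452-fold higher, and Rspo2, a secreted WNT amplifier, reached 13.2 and 13.7 CPM. Among antagonists, 5 of 13 had 2-fold rises and 3 had 2-fold falls. Dkk1, which blocks the LRP co-receptors, rose from 7.88 and 7.07 CPM to 57.6 and 56.6 CPM (log2 fold 2.94 ± 0.13, edgeR adjusted p = 4.91e-21), and Sfrp1, which binds WNT ligands, from 16.4 and 16.6 CPM to 151 and 167 CPM, while Frzb fell from 62.2 and 57.2 CPM to 24.9 and 27.8 CPM. Of 19 tested WNT target genes 10 had 2-fold falls and 3 had 2-fold rises, with a median of -1.04.

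Promoters are shown for a pair of these targets that moved in opposite directions and hold the same TCF motif, the letters CTTTGAT read on either strand. Sp5, a zinc finger target of beta-catenin in the streak, fell from 57.2 and 53.5 CPM to 6.02 and 5.67 CPM (log2 fold -3.24 ± 0.14, edgeR adjusted p = 8.04e-21). Tnfrsf19, a receptor gene also known as Troy, rose from 49.5 and 53.4 CPM to 119.9 and 119.5 CPM (log2 fold 1.22 ± 0.08, edgeR adjusted p = 3.36e-16). The 250 bases before each start are from RefSeq on GRCm38.p6, 5′ to 3′ on the gene's strand, with the motif or its reverse complement in capitals; for Tnfrsf19 this is 1 of 2 windows listed for the gene.
Sp5, chr2:70474673-70474922, plus strand, motif at -104: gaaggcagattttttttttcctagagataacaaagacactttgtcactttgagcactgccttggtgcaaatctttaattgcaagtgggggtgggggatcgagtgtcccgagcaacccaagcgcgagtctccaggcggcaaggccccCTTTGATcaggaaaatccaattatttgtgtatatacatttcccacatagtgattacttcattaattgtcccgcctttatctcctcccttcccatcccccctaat
Tnfrsf19, chr14:61037988-61038237, minus strand, motif at -202: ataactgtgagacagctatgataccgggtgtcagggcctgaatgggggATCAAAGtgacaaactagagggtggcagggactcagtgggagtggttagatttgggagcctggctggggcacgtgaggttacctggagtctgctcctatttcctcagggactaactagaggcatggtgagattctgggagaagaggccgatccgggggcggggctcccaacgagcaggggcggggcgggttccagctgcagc
Of 20 genes on the WNT target list 13 had a promoter window, and 2 of these (15.4%) held the motif, against 1005 of 27025 genes with a window (3.72%). A match of these 7 letters describes the window and is not a binding site.

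Several genes of the ventral midline rose. Shh (chromosome 5, 28456815 to 28467256, minus strand), the morphogen of notochord and floor plate, was near 0 at day 4, with 0.139 and 0.135 CPM, and measured 249 and 211 CPM at day 10, a ratio of 1680. Per exon length it reached 80.8 RPKM, that is CPM per kilobase of exon. Foxa1, Lmx1a and Lmx1b, transcription factors of the floor plate and midbrain midline, reached 49.6/41.5, 61/47.7 and 41.2/32.9 CPM from 4.6/3.97, 0.0697/0.135 and 0.418/0.336 CPM. Ntn1, the axon attractant netrin, rose from 40.6 and 38.8 CPM to 204 and 175 CPM, and Slit1 and Slit2, midline repellents, reached 107/96.7 and 353/288 CPM. All of these were higher in both day 10 libraries than in both day 4 libraries. Foxa2, which floor plate shares with endoderm and the anterior streak, differed little, at 61.1 and 66.4 CPM and 50.01 and 45.9 CPM, and its fall (log2 fold -0.41 ± 0.11, edgeR adjusted p = 0.00108) was not called under total-count scaling or without replicate 2 of the culture without GF. On the notochord and floor plate list 6 of 11 tested members had 2-fold rises and 4 had 2-fold falls, T among the latter.

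Hedgehog target genes were higher at day 10. Ptch1, the Hedgehog receptor and its own target, rose from 81.6 and 81.9 CPM to 317 and 317 CPM, Gli1, a transcription factor and target, from 5.37 and 4.04 CPM to 32.5 and 32.5 CPM, and Hhip, a ligand-binding inhibitor, from 0.348 and 0.606 CPM to 34.5 and 30.7 CPM. The log2 folds were 1.96 ± 0.076, 2.79 ± 0.14 and 6.07 ± 0.39, with edgeR adjusted p of 2.30e-22, 4.26e-20 and 1.93e-08. Of 11 tested members of the Hedgehog list 4 had 2-fold rises and 3 had 2-fold falls, with a median of -0.35, so the list as a whole did not move one way.

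Of 24 tested neural progenitor genes 20 had 2-fold rises (the share over all genes was 22.7%) and 2 had 2-fold falls, and the median log2 fold was 4.37 against 0.057 over all genes. Zic1, of the dorsal neural tube, rose from 0.418 and 0.202 CPM to 39.1 and 40.4 CPM. Nkx6-1, Nkx6-2 and Nkx2-2, homeobox genes of ventral domains, reached 73.6/67.1, 10.2/12.3 and 9.62/6.13 CPM, and Nkx2-1, of the ventral forebrain and also of lung and thyroid, reached 22 and 25.3 CPM from 0 at day 4. Dbx1, of interneuron progenitors at the middle of the tube, reached 74.9 and 68.2 CPM with 1 count over both day 4 libraries, a ratio of 2090 (95% counting interval 374 to 82400). Six3, of the anterior forebrain, reached 17.3 and 18.8 CPM, and Olig2, of motor neuron progenitors, was at 0.993 and 1.49 CPM. Sox1, the earliest neural plate marker, rose from 0.557 and 0.269 CPM to 17.2 and 19 CPM (log2 fold 5.44 ± 0.29, edgeR adjusted p = 1.97e-18). Pax6, of dorsal and intermediate progenitors, rose to 4.53 and 6.93 CPM, and En1, of the midbrain and hindbrain border, to 4.28 and 3.67 CPM, while its relative En2 was at 0.062 and 0.115 CPM. Rfx4, a factor of neural progenitors, reached 35.5 and 36.1 CPM, and Hes5, a Notch target of neural stem cells, 4.34 and 4.64 CPM from 0 at day 4. Sox3, a relative of Sox2, was among the 2 list members with 2-fold falls, and 1 such fall was counted under total-count scaling or without replicate 2 of the culture without GF.

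Hox genes, which number the axis from hindbrain to tail, were scarce. Of 39 on the list 35 stood under 1 CPM at day 10. Of 36 tested 7 had 2-fold rises (19.4%, against 22.7% over all genes), 2 had 2-fold falls and 27 were not called. Those that rose most were of the hindbrain: Hoxa2 reached 8.93 and 7.45 CPM from 0, and Hoxb2 2.23 and 2.06 CPM from 0. The list summed to 1.95 and 1.68 CPM at day 4 and 16.1 and 14.8 CPM at day 10. The count of rises went from 7 to 4 when replicate 2 of the culture without GF was left out.

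Neuronal genes rose with the progenitor genes. Tubb3, neuronal beta tubulin, went from 13.6 and 14.3 CPM to 147 and 154 CPM (log2 fold 3.43 ± 0.10, edgeR adjusted p = 1.20e-26). Nefm, a neurofilament subunit, went from 15.9 and 13.8 CPM to 260.3 and 289.9 CPM (log2 fold 4.21 ± 0.14, edgeR adjusted p = 2.65e-14), and Elavl4, an RNA-binding protein of postmitotic neurons, from 1.95 and 1.61 CPM to 178 and 186 CPM (log2 fold 6.67 ± 0.13, edgeR adjusted p = 6.11e-32). In each the day 10 libraries lay above both day 4 libraries by several-fold or more. Of 25 tested neuronal genes 18 had 2-fold rises and none a 2-fold fall, with a median of 2.01, and the list's sum went from 292 and 291 CPM to 1610.0 and 1683 CPM. The proneural factor gene Neurog2 was at a lower level and reached 6.76 and 6.13 CPM from 0 at day 4. St18, a zinc finger gene of differentiating neurons, went from 0 to 47.5 and 48.7 CPM, at least 468-fold higher.

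Markers of neuronal types were uneven. Phox2a, a factor of noradrenergic neurons, at 2.51 and 2.29 CPM and then 3.29 and 3.04 CPM, was not called (edgeR adjusted p = 0.166). Isl1, shared by motor neurons and cardiac progenitors, rose to 62 and 69.1 CPM. Sst, the peptide somatostatin, went from 0 to 25.9 and 25.8 CPM, at least 252-fold higher. Transmitter enzymes and transporters were low on both days, yet several rose. Th, for dopamine and noradrenaline, went from 0.139 and 0 CPM to 6.51 and 3.72 CPM (log2 fold 6.07 ± 0.59, edgeR adjusted p = 1.88e-11). Chat and Slc18a3, for acetylcholine, rose from 0.0697/0 and 0.348/0.404 CPM to 1.61/2.06 and 3.1/2.06 CPM, while Slc17a6, for glutamate, measured 0.348 and 0.471 CPM and then 1.12 and 0.916 CPM, and Gad1, for GABA, 4.67 and 4.17 CPM and then 3.23 and 2.29 CPM. The call of Gad1 as lower was lost in 3 of 11 alternatives. Gad2, also for GABA, rose from a mean of 0.688 CPM to a mean of 2.6 CPM (log2 fold 1.91, edgeR adjusted p = 9.49e-05). Among guidance receptors, Dcc, the netrin receptor, went from 0 to 19.7 and 17.9 CPM and Robo3, a ROBO family member of commissural axons, from 1.11 and 1.08 CPM to 8.19 and 10.3 CPM. Slitrk6 and Negr1, adhesion proteins of neurites, were also among the 12 largest rises, at 31/25.1 and at 21.8/25.3 CPM from 0. Ppp1r17, a phosphatase inhibitor of cerebellar Purkinje cells, reached 32.1 and 34.9 CPM from 0. On the glia list 2 of 8 tested genes had 2-fold rises (25%, against 22.7% over all genes) and 1 had a 2-fold fall.

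Matrix genes rose. Col3a1 (chromosome 1, 45311538 to 45349706, plus strand), a fibrillar collagen of soft tissue, went from 0.279 and 0.269 CPM to 755 and 769 CPM (log2 fold 11.40 ± 0.16, edgeR adjusted p = 6.11e-35). Col1a1 and Col1a2, the chains of type I collagen, went from 1.46/0.942 and from 7.88/8.01 CPM to 278/274 and to 493/545 CPM, and Col2a1, of cartilage and notochord sheath, from 10.5 and 10.7 CPM to 216 and 206 CPM. Of 22 collagen genes 19 had 2-fold rises and 2 had 2-fold falls, with a median of 4.20, and their sum went from 365 and 349 CPM to 3596 and 3592 CPM. Postn, the matrix protein periostin, measured 266 and 243 CPM at day 10 with 1 count over both day 4 libraries, a ratio of 7420 (95% counting interval 1330 to 293000). Vit, a matrix protein, and Vcam1, an adhesion receptor, completed the 12 largest rises, at 25.4/23.2 and at 23.3/23.5 CPM from 0.

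Mesenchymal regulators rose with the matrix. Of 20 tested fibroblast and mesenchyme genes 17 had 2-fold rises, among them Vim, the intermediate filament vimentin, from 72 and 78.7 CPM to 776 and 817 CPM, and Prrx1, a limb and head mesenchyme factor, from 1.11 and 0.875 CPM to 37.7 and 41.2 CPM. Pdgfra, a receptor of early mesoderm and fibroblasts, was at 44.5 and 45 CPM already at day 4 and 63.6 and 71.1 CPM at day 10. On the list of regulators of epithelial to mesenchymal transition 9 of 11 had 2-fold rises, including Twist1 (6.69 and 7.13 CPM to 42.9 and 38.3 CPM) and Zeb2 (27.6 and 25.8 CPM to 129.5 and 141 CPM), and Snai1, a streak gene too, had the 1 2-fold fall. Conversely 12 of 17 epithelial genes had 2-fold falls and 2 had 2-fold rises: Cdh1, E-cadherin, went from 778 and 788 CPM to 29.5 and 24.3 CPM (log2 fold -4.87 ± 0.11, edgeR adjusted p = 2.10e-20), and Epcam, an epithelial adhesion protein, from 273 and 267 CPM to 19.1 and 17 CPM. Smooth muscle genes gained 11 2-fold rises and 2 falls among 15, led in level by Cald1, the actin regulator caldesmon, at 799.7 and 808 CPM, and Acta2, smooth muscle actin, which went from 4.04 and 5.18 CPM to 202 and 181 CPM (log2 fold 5.37 ± 0.15, edgeR adjusted p = 3.97e-15). Under total-count scaling, and without replicate 2 of the culture without GF, that list had 1 2-fold fall.

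Unlike Nodal and its inhibitors, most tested genes of the TGF-beta pathway list and of the BMP ligand and receptor list were higher. Of 16 tested TGF-beta pathway genes 11 had 2-fold rises and 3 had 2-fold falls, with a median of 2.01. The ligand gene Tgfb2 went from 1.39 and 1.35 CPM to 74.1 and 69.99 CPM and the induced matrix gene Tgfbi from 1.04 and 0.404 CPM to 45 and 47.5 CPM. Skil was among the falls, from a mean of 231 CPM to a mean of 110 CPM (log2 fold -1.07). Of 18 BMP ligands and receptors 9 had 2-fold rises and none a 2-fold fall, with Bmp4 from 6.06 and 5.79 CPM to 45.8 and 52.9 CPM and Bmp5 from 0.767 and 0.471 CPM to 38.9 and 40.8 CPM. Of 18 BMP target genes 11 had 2-fold rises and none a 2-fold fall, the ID factors Id1 and Id4 among them, at 38.7/45.7 and at 18.4/19.4 CPM. BMP antagonists were split, as Nog, noggin, rose from 0.209 and 0.135 CPM to 14.9 and 12.2 CPM, while Fst, follistatin, fell from 299.9 and 298 CPM to 53.8 and 55.6 CPM and Chrd, chordin, from 17.2 and 17.5 CPM to 5.03 and 4.58 CPM. On the retinoic acid list 9 of 17 had 2-fold rises and 3 had 2-fold falls, with the binding proteins Crabp1 and Crabp2 at 226/252 and at 169/179.9 CPM from 6.27/6.19 and from 11.2/13.4 CPM. On the Notch list 7 of 19 had 2-fold rises, among them Dtx4, a regulator of Notch turnover, from 16.8 and 14.9 CPM to 81.4 and 80.6 CPM.

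**Figure D2:**
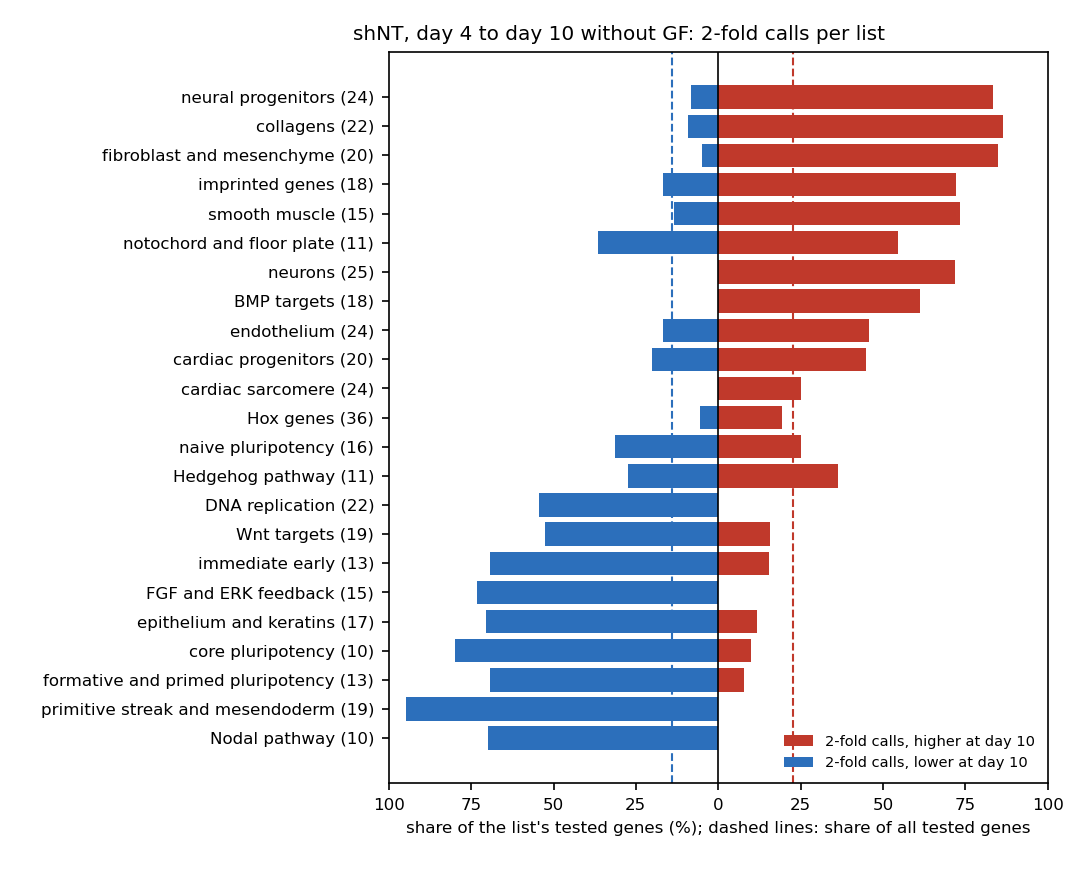
Share of each list's tested genes, in percent, with a 2-fold rise (red, to the right) or a 2-fold fall (blue, to the left) from day 4 to day 10 without GF in shNT cells, with the number tested in brackets and dashed lines at the shares over all genes (22.7% and 13.9%). Rises prevail in the collagens (19 of 22) and neural progenitors (20 of 24), and falls in the streak list (18 of 19).

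Imprinted genes, many of which control growth, mostly rose: 13 of 18 had 2-fold rises and 3 had 2-fold falls, with a median of 2.65. H19, a noncoding RNA, went from 1.19 and 0.942 CPM to 129 and 119.9 CPM (log2 fold 6.87 ± 0.13, edgeR adjusted p = 1.40e-32), its neighbour Igf2, a growth factor, from 0.348 and 0.471 CPM to 67.3 and 73.5 CPM, and Dlk1, a Notch-like ligand, from 1.6 and 1.68 CPM to 69.6 and 67.6 CPM. Cdkn1c, an inhibitor of cyclin-dependent kinases, rose from 16.9 and 16.8 CPM to 173 and 183 CPM. Of 14 cell cycle inhibitors 6 had 2-fold rises and none a 2-fold fall. Of 22 DNA replication genes 12 had 2-fold falls and none a 2-fold rise, such as the helicase subunit gene Mcm5 (463 and 469 CPM to 168 and 192 CPM). That count was 7 under total-count scaling. Of 22 mitotic and other cell cycle genes 3 had 2-fold falls (13.6%, against 13.9% over all genes), Ccne1, cyclin E, among them (152 and 154 CPM to 21.3 and 25.3 CPM). All 13 mitochondrially encoded genes were called lower and 6 had 2-fold falls, with mt-Nd4, a complex I subunit, at 2235 and 2271 CPM and then 1029 and 1098 CPM. Over the alternatives the log2 folds of mt-Nd1, mt-Nd4 and mt-Cytb reached -0.876, -0.871 and -0.855, short of 2-fold. The falls of mt-Nd3, mt-Nd4l and mt-Atp8 were at low levels, with day 4 means of 2.92, 1.36 and 2.56 CPM.

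Host transcripts of several microRNAs rose between the days. Mature microRNAs were not measured: the counts are of the long host transcripts, and these hosts were chosen after their values were seen. Lin28a, whose protein blocks let-7 maturation, fell from 566 and 571 CPM to 222 and 240.1 CPM (log2 fold -1.30 ± 0.062, edgeR adjusted p = 2.57e-20). Its relative Lin28b rose, from a mean of 182 CPM to a mean of 267 CPM (log2 fold 0.554, edgeR adjusted p = 1.32e-09). A link between either gene and the hosts was not tested. Mir100hg (chr9:41376526-41615185) held 7 and 6 counts at day 4 and 2337 and 2549 at day 10, or 0.488 and 0.404 and then 145 and 146 CPM. Mir99ahg (chr16:77236317-77773427) held 0 counts in both day 4 libraries and 189 and 189 at day 10, at least 110-fold higher. Dnm3os (chr1:162217623-162225550) held 1 and 0 counts at day 4 and 621 and 635 at day 10, a ratio of 1090 (95% counting interval 196 to 43200). Mir124-2hg, a neural host, rose from 0.488 and 0.404 CPM to 84.4 and 85 CPM, while Mir17hg, the host of a proliferation-linked cluster, measured 79.7 and 79.8 CPM and then 66.5 and 61.8 CPM. For the first 3 hosts, 8 mature RefSeq sequences that lie inside them on GRCm38.p6 are given 5′ to 3′, with the seed, bases 2 to 8, in capitals, to show which hosts share a seed.
miR-100-5p, chr9:41531437-41531458, plus strand, in Mir100hg: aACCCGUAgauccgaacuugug
miR-99a-5p, chr16:77598940-77598961, plus strand, in Mir99ahg: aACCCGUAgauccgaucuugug
miR-125b-5p, chr9:41581940-41581961 and chr16:77646279-77646300, plus strand, in both hosts: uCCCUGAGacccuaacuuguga
let-7a-5p, chr9:41536732-41536753, plus strand, in Mir100hg: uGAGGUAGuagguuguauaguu
let-7c-5p, chr16:77599672-77599693, plus strand, in Mir99ahg: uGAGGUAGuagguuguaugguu
miR-199a-5p, chr1:162217844-162217866, plus strand, in Dnm3os: cCCAGUGUucagacuaccuguuc
miR-199a-3p, chr1:162217883-162217904, plus strand, in Dnm3os: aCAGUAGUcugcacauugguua
miR-214-3p, chr1:162223438-162223459, plus strand, in Dnm3os: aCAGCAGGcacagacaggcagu
These carry 6 seeds. Among the sequences shown, Mir100hg and Mir99ahg share the seeds of miR-100 with miR-99a, of miR-125b and of let-7, while the seeds in Dnm3os occur in neither.

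Most sarcomere genes, which define the cardiomyocyte of the label, were at low levels, and some rose. Nkx2-5, the cardiac homeobox factor, measured 0 and 0.135 CPM at day 4 and 0 in both day 10 libraries. Tnnt2, cardiac troponin T, measured 0.139 and 0.135 CPM and 1.24 and 1.2 CPM (edgeR adjusted p = 0.164), and Myh6, the atrial and adult myosin heavy chain, 5.85 and 5.79 CPM and 1.49 and 2.46 CPM (edgeR adjusted p = 0.182). Ryr2, the calcium release channel, was at 1.39 and 1.41 CPM and 2.85 and 1.38 CPM, and Gata4, the GATA factor of heart and endoderm, went from 15.5 and 17.4 CPM to 0.186 and 0.172 CPM. Tnnt2 and Myh6 were called, the first as higher and the second as lower, when the fit held only the compared groups or was made with DESeq2. Of 24 tested sarcomere genes 6 had 2-fold rises (25%, near the 22.7% over all genes), none a 2-fold fall and 17 were not called, with a median of 1.01. The count of rises was 10 when the fit held only the groups compared or was made with DESeq2. The risers included Actc1, cardiac actin, at 39 and 35.7 CPM from 5.99 and 9.29 CPM (log2 fold 2.28 ± 0.45, edgeR adjusted p = 0.0034), Myh7, the fetal ventricular and slow muscle myosin heavy chain, at 9.18 and 8.02 CPM from 0.209 and 0.404 CPM (log2 fold 4.77 ± 1.13, edgeR adjusted p = 0.00473), Nebl, nebulette, at 12.4 and 12.1 CPM from 1.32 and 1.01 CPM, and Cryab, a small heat shock protein of muscle and other tissues, at 6.95 and 8.08 CPM from 0.348 and 0.135 CPM. The list summed to 325 and 322 CPM at day 4 and 634 and 607 CPM at day 10, of which Tpm1, a tropomyosin gene used in many cell types, made 293 and 290.1 CPM and then 539 and 518 CPM.

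Of 18 genes for cardiac calcium handling, channels and natriuretic peptides 7 had 2-fold rises (38.9%) and 2 had 2-fold falls. Corin, a protease that processes natriuretic peptides, rose from 0.139 and 0.202 CPM to 28.1 and 21.2 CPM (log2 fold 7.11 ± 0.45, edgeR adjusted p = 7.39e-10), Jph2, a junction protein of striated muscle, from 0.348 and 0.404 CPM to 9.18 and 9.34 CPM, and Kcnj2, a potassium channel of heart, muscle and neurons, from 0.0697 and 0.135 CPM to 33.9 and 26.9 CPM.

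Of 20 cardiac progenitor genes 9 had 2-fold rises (45%) and 4 had 2-fold falls. Isl1, Tbx1 and Tbx20, T-box and homeobox factors of the heart and of other regions, reached 62/69.1, 13.2/10.4 and 20.6/21.5 CPM. Fgf10, a ligand of the second heart field and of many buds, rose from 10.4 and 9.76 CPM to 26.4 and 31.5 CPM. Smarcd3, a chromatin remodelling subunit of heart muscle, rose from 0.767 and 0.942 CPM to 4.53 and 5.33 CPM, Myocd, the cofactor myocardin of cardiac and smooth muscle, from 0.209 and 0.336 CPM to 1.99 and 1.72 CPM, and Hand2, of the right ventricle and limb, from 0.348 and 0.269 CPM to 1.12 and 1.26 CPM (log2 fold 1.93 ± 0.49, edgeR adjusted p = 9.26e-04). Tbx5, of the first heart field, stood at 0 and 0.0573 CPM. Gata4 and Gata6 were among the falls, the latter from 15.8 and 17.8 CPM to 0.931 and 0.745 CPM.

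Genes of blood, vessels and endoderm moved in both directions. Of 24 endothelial genes 11 had 2-fold rises and 4 had 2-fold falls, and the list's sum was 105 and 99.2 CPM and then 116 and 122 CPM. Kdr, the VEGF receptor of angioblasts, fell from 24.2 and 23 CPM to 7.32 and 7.79 CPM, while Cdh5 and Pecam1, endothelial adhesion proteins, reached 13/12.8 and 39.4/43.1 CPM. Of 17 blood genes 10 had 2-fold rises (58.8%, against 22.7% over all genes) and 3 had 2-fold falls, while the list's sum went from 142 and 136 CPM to 77.4 and 86.2 CPM. Myb, a factor of blood progenitors and of dividing cells, made much of the day 4 sum and fell from 60.1 and 63.1 CPM to 2.42 and 1.95 CPM. Embryonic globin genes were among the risers, with Hba-x at 8.62 and 10.1 CPM and Hbb-bh1 at 10.1 and 14.4 CPM, both from 0. Ptprc, the leukocyte antigen CD45, was at 0.186 and 0.0573 CPM, and of 16 macrophage genes 15 were under 1 CPM, the list summing to 6.34 and 7 CPM at day 4 and 3.23 and 3.32 CPM at day 10. Of 16 definitive endoderm and gut genes 9 had 2-fold falls and 3 had 2-fold rises. Of 13 visceral endoderm and liver genes 7 had 2-fold rises (53.8%) and none a 2-fold fall, and 15 of the 21 genes on the full list were under 1 CPM at day 10. Dab2, an endocytic adaptor that other cell types also use, rose from 19.2 and 16.3 CPM to 53.3 and 50.5 CPM, and Spink1, Rbp4 and Apob, secreted proteins of gut and liver, reached 12.7/10.2, 11/9.45 and 10.5/9.34 CPM. Afp and Alb, of yolk sac and liver, were at 0.124/0 and at 0.124/0.286 CPM, with Alb removed by the filter on low counts. Of 9 tested skeletal muscle genes 5 had 2-fold rises (55.6%) and 1 a 2-fold fall, with Des, the filament protein desmin of all muscle types, at 4.88 and 5.05 CPM and then 25.4 and 28.4 CPM, and 13 of the 17 genes on the full list were under 1 CPM.

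How the course without GF differed from the course of the CM culture was tested between the day 10 groups, as the shared day 4 libraries cancel from that difference. Of 19141 genes 10103 were called (52.8%), with 1477 higher without GF by 2-fold or more (7.72%) and 1906 lower (9.96%). Neuronal genes were higher without GF: 23 of 25 tested members of the list were higher by 2-fold or more and 1 was lower. Tubb3 measured 4.73 and 4.08 CPM in the CM culture against 147 and 154 CPM without GF (log2 difference 5.08 ± 0.12, edgeR adjusted p = 3.53e-29), and Nefm 13.1 and 10.9 CPM against 260.3 and 289.9 CPM. The neuronal list summed to 214 and 202 CPM in the CM culture, below its day 4 level. Among progenitor genes 17 of 24 were higher without GF by 2-fold or more and 2 lower. Dbx1 was at 0.263 and 0 CPM, Nkx6-1 at 6.43 and 4.33 CPM and Wnt1 at 0.263 and 0.3 CPM in the CM culture. Otx2 was at 27.7 and 31.8 CPM there against 237 and 232 CPM without GF (log2 difference 2.99 ± 0.12, edgeR adjusted p = 1.61e-12). The midline gene Shh, at 176 and 166 CPM in the CM culture, differed less (log2 difference 0.42 ± 0.076, edgeR adjusted p = 1.37e-05), and Foxa1, at 57.8 and 54.3 CPM there, had a log2 difference of -0.30 ± 0.10 (edgeR adjusted p = 0.0112).

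Endothelial genes had the opposite order, with all 24 tested members lower without GF by 2-fold or more. Cdh5 measured 240.5 and 236 CPM in the CM culture against 13 and 12.8 CPM without GF (log2 difference -4.21 ± 0.098, edgeR adjusted p = 4.04e-25), and Stab1, a scavenger receptor of sinusoidal endothelium and macrophages, 183 and 178 CPM against 0.807 and 0.916 CPM. The list summed to 1703 and 1651 CPM in the CM culture. Macrophage genes summed to 33.3 and 33.4 CPM there against 3.23 and 3.32 CPM without GF, but 1 of 6 tested was lower without GF by 2-fold or more and 4 were not called: most of the sum was Mrc1, a mannose receptor also found on endothelium, at 27.3 and 28.7 CPM in the CM culture and 0.062 and 0.286 CPM without GF. Ptprc was at 0.0438 and 0 CPM in the CM culture. The part of macrophage genes in the difference was not tested. Epithelial genes were lower without GF by 2-fold or more in 16 of 17, Hox genes in 22 of 36 and FGF feedback genes in 9 of 15. T was at 260.4 and 258 CPM in the CM culture against 29.3 and 28.2 CPM without GF. Spry4 measured 43.8 and 40.9 CPM in the CM culture against 2.98 and 2 CPM without GF (log2 difference -4.09 ± 0.14, edgeR adjusted p = 7.83e-24). Collagens summed to 6244 and 5879 CPM in the CM culture against 3596 and 3592 CPM without GF. Of 22 collagens 8 were lower without GF by 2-fold or more (36.4%, against 9.96% of all genes) and 1 was higher. Sarcomere genes summed to 546 and 604 CPM in the CM culture, with 1 of 24 higher without GF by 2-fold or more and 1 lower.

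**Figure D3:**
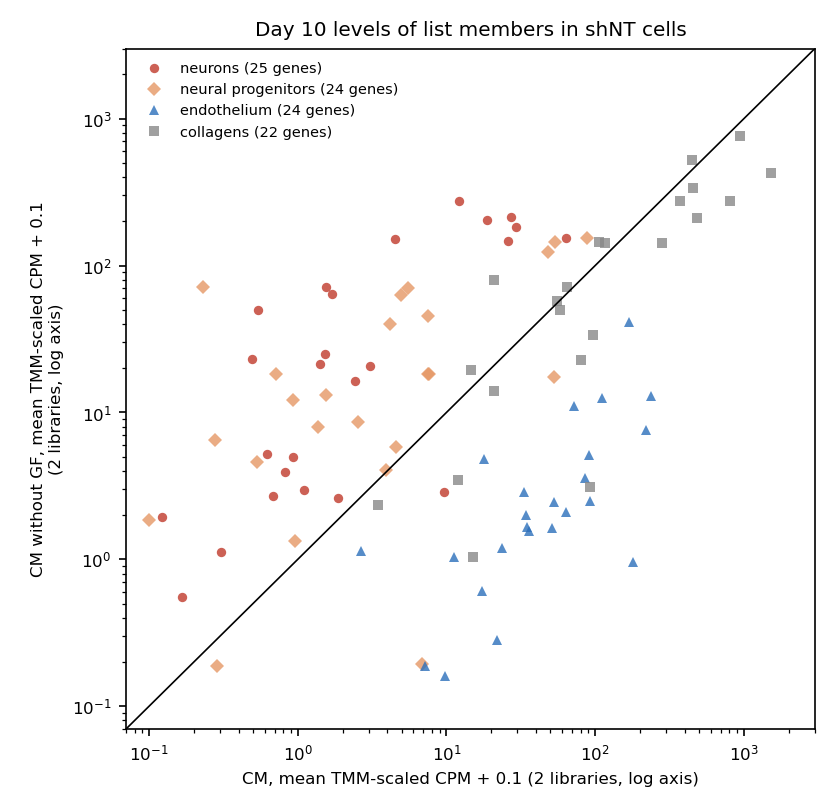
Mean TMM-scaled CPM plus 0.1 of the tested members of the neuronal, neural progenitor, endothelial and collagen lists at day 10 in shNT cells, with the CM culture on the x axis and the culture without GF on the y axis, both log axes, 1 point per gene, and a diagonal for equal levels. Of 25 neuronal genes 24 lie above the diagonal, and all 24 endothelial genes lie below it.

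Whether the hairpin altered the course without GF was tested as the difference between the shBeclin1 and shNT changes from day 4 to day 10. Of 19141 genes 7596 were called (39.7%), with 1702 higher in the shBeclin1 course by 2-fold or more (8.89%) and 1512 lower (7.9%). Loss of Becn1 and other effects of the hairpin cannot be told apart. In shBeclin1 cells 17 of 25 neuronal and 17 of 24 progenitor genes had a course lower than in shNT cells by 2-fold or more, and 1 of each a higher one. Shh measured 9.91 and 7.73 CPM in shBeclin1 cells without GF against 249 and 211 CPM in shNT cells, and Otx2 0.627 and 2.12 CPM against 237 and 232 CPM. Sox2, which rose in shNT cells, measured 41.2 and 44.8 CPM at day 4 and 5.41 and 4.8 CPM at day 10 without GF in shBeclin1 cells (difference of courses -4.20 ± 0.13 on the log2 scale, edgeR adjusted p = 5.59e-25). Tubb3 measured 1.54 and 1.72 CPM in shBeclin1 cells without GF. Neural sums there were 89.4 and 95.6 CPM for neurons and 195 and 176 CPM for progenitors.

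Sarcomere genes had the opposite order. Tnnt2 measured 544 and 977 CPM and Myh6 538 and 1263 CPM in shBeclin1 cells without GF, against 1.24/1.2 and 1.49/2.46 CPM in shNT cells. Gata4 measured 144 and 172 CPM there, Hand2 368 and 314 CPM and Acta2 1327 and 1648 CPM. In sarcomere genes 10 of 24 had a higher course in shBeclin1 cells by 2-fold or more and none a lower one, and in smooth muscle genes 11 of 15 and none. The shBeclin1 libraries without GF differed from each other, with sarcomere sums of 6392 and 10590.0 CPM, so that the sizes of these differences are uncertain while both libraries lay above both shNT libraries. Of 22 collagens 7 had a higher course in shBeclin1 cells by 2-fold or more (31.8%, against 8.89% of all genes) and 2 a lower one, with a median log2 fold of 4.20 in shNT and 4.39 in shBeclin1 cells. The Wilms tumour gene Wt1 and Tcf21, factors of the epicardium and of other mesothelium, measured 101/88.6 and 55.8/41.7 CPM in shBeclin1 cells without GF against 0.31/0.344 and 0/0 CPM in shNT cells.

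**Figure D4:**
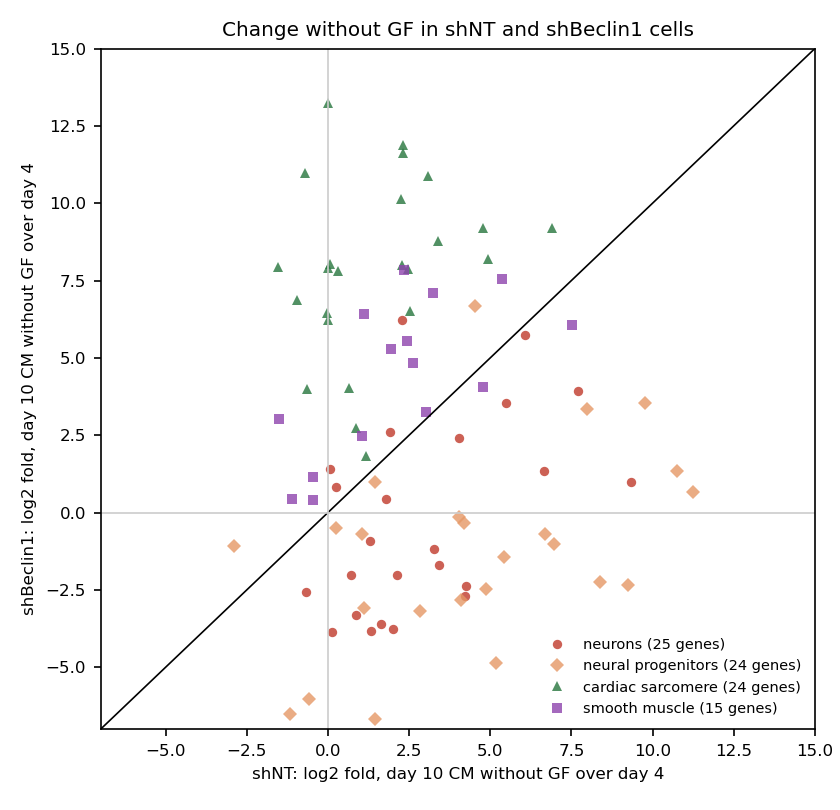
Log2 fold from day 4 to day 10 without GF in shNT cells on the x axis and in shBeclin1 cells on the y axis for the tested members of the neuronal, neural progenitor, sarcomere and smooth muscle lists, 1 point per gene, with a diagonal for equal change. All 24 sarcomere genes lie above the diagonal, and 22 of 24 neural progenitor genes lie below it.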

How the data were processed

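RNA was sequenced from mouse cells in 8 groups of 2 libraries; per the labels' protocols, total RNA was taken with TRIzol. The labels name both an rRNA depletion kit and polyA RNA, so the RNA fraction is not settled. The authors deposited raw read counts per gene symbol (54052 entries, all columns assigned). Per the submitters' processing notes, Trimmomatic 0.36, featureCounts, Subread 1.5.1, SAMtools and mm10 were used; the aligner, the annotation and any strand setting were not given in the sources used here.

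Counts were fitted in R 4.3.3 with edgeR 4.0.16 (filterByExpr, TMM, robust quasi-likelihood test with 1 mean per group over all 16 libraries), which removed 34911 entries, 18471 of them 0 throughout, and left 19141 genes, 8 residual degrees of freedom and a common biological coefficient of variation of 5.4%. P-values were Benjamini-Hochberg adjusted over all genes. The code was tested on simulated data. No batch term could be fitted. Replicates differed beyond sampling noise (chi-square per gene 1.447 at day 4 and 2.057 without GF). For a group without counts, 3 counts over its libraries served as a floor, which makes the fold a lower bound; a group with 1 to 3 counts gives a ratio with a 95% counting interval that covers counting error only. Exon lengths came from an mm10 annotation. Symbols that occur more than once (77 symbols, 882 entries) were kept apart. DESeq2 1.42.0, other scalings and filters, fewer groups, a replicate block and left-out libraries were tried as alternatives.

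The comparison and the gene lists, some of which share genes, were chosen with earlier results of these data known. Genes named were the 12 largest rises and 12 largest falls at 5 CPM or more, in groups without overlap and leaving out predicted-gene symbols, up to 4 largest 2-fold calls and the 2 of highest level per list, the 6 largest each way in the other comparisons, and a fixed set of markers; some genes that meet these rules are not reported here. Genes added after their values were seen were Cdh2, Chat, Dkk1, Dnm3os, En1, En2, Fgf10, Foxa1, Gad1, Gad2, Hand2, Hes5, Id1, Lefty1, Lin28b, Lmx1a, Lmx1b, Mir100hg, Mir124-2hg, Mir17hg, Mir99ahg, Myocd, Nkx2-2, Olig2, Otx2, Phox2a, Rfx4, Robo3, Six3, Slc17a6, Slc18a3, Slit1, Slit2, Smarcd3, Sox3, Spry4, Tbx5, Tnfrsf19, Twist1, Zeb2 and Zic1.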

Additional observations from a re-analysis of the deposited data

Results flagged for a closer look

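Differences between courses that passed their own test are listed here as values. Between the day 10 cultures of shNT cells, 1477 genes were higher without GF by 2-fold or more and 1906 lower. Among the largest log2 differences (without GF minus CM) were 10.00 in Lrtm1, 8.81 in Dbx1, 7.87 in Slco1c1 and 7.46 in Nkx2-1 on the higher side. On the lower side they were -9.08 in Chrna6, -8.30 in Hlx, -7.70 in Stab1, -7.23 in Mrc1, -7.18 in Lyve1 and -7.06 in Gbp11. Dbx1, the interneuron progenitor factor, measured 74.9 and 68.2 CPM without GF and 0.263 and 0 CPM in the CM culture, while Lyve1, a receptor of lymphatic endothelium and macrophages, measured 0.062 and 0.0573 CPM without GF and 8.93 and 10.5 CPM in the CM culture.

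Between the hairpins, 1702 genes had a course without GF higher in shBeclin1 cells by 2-fold or more and 1512 a lower one. Among the largest differences of courses (shBeclin1 minus shNT, log2) were 15.15 in Tcf21, 12.26 in Fsd2, 10.80 in Wt1, 10.72 in Oit3 and 10.57 in Trdn. On the lower side they included -12.21 in Lrtm1, -11.51 in Btbd17, -10.79 in St18, -10.62 in Nkx6-1 and -10.05 in Sim1. Where a group is at 0 counts these fitted values depend on the prior count and are not bounds. Trdn, the calcium store protein triadin, measured 0 and 0 CPM in shNT and 8.72 and 11.6 CPM in shBeclin1 cells without GF. The 2 shBeclin1 libraries without GF differed from each other more than the 2 shNT libraries did (chi-square per gene 8.405 against 2.057), and the part of this in the differences was not tested.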

How the results depend on the processing

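The 9 counts of calls for the 3 comparisons stayed within 1.5 times their main value under all alternatives run. Leaving out 1 library in turn gave 11932 to 12104 calls for the course, 8526 to 8955 between the day 10 cultures and 6531 to 7575 between the hairpins, and the other alternatives 12243 to 13739, 9004 to 10871 and 6861 to 7894. Where a group was left with 1 library, it was assumed to vary like the others. The replicate numbers gave no sign of pairing (correlation of replicate differences -0.0133 across 11772 genes between the compared groups), and with a replicate block 13135 genes of the course were called, 13067 of them shared with the fit without it, against 10091 and 7656 in the other comparisons.

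Of 357 named genes tested in the course, 334 kept their side of the threshold under all 11 alternatives, 15 lost and 4 gained a call in at least 1, and 7 changed sign. These 7 changed sign under total-count scaling, which moves the median of all genes by 0.212, with log2 folds of 0.21 in Ccnd1, 0.026 in Fn1, 0.020 in Hspa5, 0.046 in Lrp6, 0.19 in Mki67, 0.19 in Pkm and 0.18 in Rpl4. Tnnt2, which was higher, and Myh6, which was lower, gained calls with DESeq2 and with only the compared groups, where edgeR gave adjusted p of 5.47e-06 and 8.93e-11; over all alternatives their adjusted p reached 0.304 and 0.379. The cause was not tested. With 2 libraries per group no outlier test was possible, and genes near 0 CPM rest on a few counts.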

Other observations

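Other gene lists of the course from day 4 to day 10 without GF in shNT cells are given here beside the shares over all genes, 22.7% with 2-fold rises and 13.9% with 2-fold falls. On the list of paraxial mesoderm and somites 9 of 17 tested genes had 2-fold rises and 2 had 2-fold falls; Foxc1, a forkhead factor of head and trunk mesoderm, went from 5.37 and 6.53 CPM to 26.5 and 24.5 CPM. On the epicardium and mesothelium list 8 of 14 had 2-fold rises and 2 had 2-fold falls: Tbx18, a T-box factor, went from 0.139 and 0.0673 CPM to 25.8 and 25.1 CPM, while Wt1 fell from 2.02 and 1.88 CPM to 0.31 and 0.344 CPM. Sema3d and Gpm6a on that list are also known in neurons, and measured 87.6 and 85 CPM and 75.5 and 78.2 CPM at day 10. Of 14 neural crest genes 8 had 2-fold rises and 2 had 2-fold falls, with the neuregulin receptor gene Erbb3 falling from 38.2 and 38.4 CPM to 3.1 and 3.67 CPM.

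In the IGF system 6 of 13 tested genes had 2-fold rises and 1 had a 2-fold fall. Igfbp5, a secreted binding protein, went from 11.7 and 14.5 CPM to 386 and 343 CPM, and was higher still in the CM culture, at 1428 and 1440.0 CPM. Of 26 glycolysis and hypoxia genes 8 had 2-fold rises and 2 had 2-fold falls: Vegfa, the vessel growth factor, went from 18.3 and 16.8 CPM to 184 and 179.5 CPM, and Slc2a1, a glucose transporter, from 563 and 579.5 CPM to 182 and 176 CPM. Vegfa stood at 183 and 188 CPM in the CM culture (log2 difference of Vegfa without GF minus CM -0.027 ± 0.075, edgeR adjusted p = 0.789). Of 32 core autophagy genes 5 had 2-fold rises (15.6%) and 2 had 2-fold falls (6.25%), with Gabarap, an ATG8 family protein, at 93.5 and 93.1 CPM and then 231 and 238 CPM, and Ulk2, an initiating kinase, at 14.4 and 16.4 CPM and then 55.5 and 57.9 CPM. Of 85 ribosomal protein genes 1 had a 2-fold fall (1.18%) and none a 2-fold rise, so that both lists lay below the shares over all genes.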
